A study of Caenorhabditis elegans with 2 samples.

Results

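The microRNA genes of the nematode Caenorhabditis elegans that belong neither to the developmental timing microRNAs nor to the mir-51 family were examined for binding of PEB-1, a FLYWCH zinc finger protein that binds DNA. They were all nuclear genes of the class miRNA in the Ensembl annotation of the assembly WBcel235, except lin-4, let-7, mir-48, mir-84, mir-241 and mir-51 to mir-56. Of 261 microRNA genes, 11 were left out by this rule, and 250 remained of 44762 genes that are not pseudogenes. Genes within 2000 bp of each other were also joined, which gave 208 loci, 24 of them with several genes and the largest with 7. By chromosome, 33 genes lay on I, 48 on II, 27 on III, 47 on IV, 26 on V and 69 on X, and 84 lay inside another gene on the same strand.

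The data were ChIP-seq peaks of an eGFP fusion of PEB-1 in whole second-stage (L2) larvae, pooled male and female, in 1 group of 2 biological replicates. Both replicates were of the strain OP86, in which the mutation unc-119(ed3) on chromosome III is combined with the integrated transgene wgIs86 that supplies the tagged protein. No untagged, mutant or other-stage group was part of the comparison, and a control experiment that the labels list only as possible was not analysed here. Whole animals were used, so the cells in which a peak arose are not known, and the transgene's copy number and expression relative to the endogenous gene are not stated in these sources.

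MicroRNAs are short RNAs cut from hairpins in longer primary transcripts, by Drosha with its partner Pasha in the nucleus and by Dicer in the cytoplasm. An Argonaute protein then carries the mature strand to messenger RNAs, which it recognises mainly through the seed, bases 2 to 8 of the microRNA. Worm microRNAs with the same seed form families that often act redundantly. Many are made as clusters on a single primary transcript or from introns of protein-coding genes, so the annotated gene start used here is the 5′ end of the hairpin and not a transcription start. The primary transcript can start further upstream.

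The sequences that the results below turn on are given first. Mature strands are shown for 3 genes of the hosted cluster that shared 1 strong peak, mir-64, mir-66 and mir-229, with mir-63, which has the same seed and lies alone on the X chromosome. The family of mir-80 is shown with mir-58.1, and mir-788 is shown as the gene with the highest rank in replicate 2. Sequences are 5′ to 3′ from RefSeq for WBcel235, with the seed in capitals and the arm of the hairpin in brackets.
mir-64 (5p): uAUGACACugaagcguuaccgaa
mir-66 (5p): cAUGACACugauuagggauguga
mir-229 (5p): aAUGACACugguuaucuuuuccaucg
mir-63 (3p): uAUGACACugaagcgaguuggaaa
mir-80 (3p): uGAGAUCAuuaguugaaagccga
mir-81 (3p): uGAGAUCAucgugaaagcuagu
mir-82 (3p): uGAGAUCAucgugaaagccagu
mir-58.1 (3p): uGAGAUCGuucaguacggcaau
mir-788 (5p): uCCGCUUCuaacuuccauuugcag

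DNA of 121 bp centred on the summit of the best pooled peak is shown for 5 genes, 3 with peaks within rank 1000 (mir-229, mir-788 and mir-80, at ranks 111, 434 and 953) and 2 of lower rank with repeats. It was read from WBcel235 on the strand of the microRNA gene. Capitals mark GAGAGA, or TCTCTC where the word lies on the other strand, and the core TGCC preceded by A, G or T and followed by A or G, on either strand.
mir-229, chrIII:2172122-2172242, plus strand: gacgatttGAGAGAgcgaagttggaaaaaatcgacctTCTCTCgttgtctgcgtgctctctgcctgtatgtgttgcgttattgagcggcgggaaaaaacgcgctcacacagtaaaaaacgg
mir-788, chrX:8485470-8485590, minus strand: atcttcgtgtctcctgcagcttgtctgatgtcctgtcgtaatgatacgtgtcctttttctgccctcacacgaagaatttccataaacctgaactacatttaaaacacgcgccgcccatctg
mir-80, chrIII:8865510-8865630, minus strand: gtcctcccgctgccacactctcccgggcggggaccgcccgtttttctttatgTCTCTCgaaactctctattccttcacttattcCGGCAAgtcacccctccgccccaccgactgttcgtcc
mir-57, chrII:7850788-7850908, minus strand: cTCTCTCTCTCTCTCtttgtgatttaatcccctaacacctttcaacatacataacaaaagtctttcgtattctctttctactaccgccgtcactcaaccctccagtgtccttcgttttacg
mir-45, chrII:11881033-11881153, minus strand: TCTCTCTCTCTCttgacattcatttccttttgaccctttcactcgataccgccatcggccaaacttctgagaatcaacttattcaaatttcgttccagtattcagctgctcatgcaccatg
Both words were chosen because they had been studied at the strong peaks of the whole experiment. The windows of mir-57 and mir-45 began with a run of the TC dinucleotide, that of mir-229 held the word once on each strand, and that of mir-788 held neither kind of word.

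Each gene was given the best-ranked peak whose summit lay from 1000 bp upstream to 200 bp downstream of its start. Ranks follow the signal, the peak height as the authors' caller gave it, within a list of 30000 peaks for the pooled data and for each replicate. Signal ran from 9.90 to 202 in the pooled list, from 5.63 to 154 in replicate 1 and from 5.17 to 54.2 in replicate 2, and neither its scale nor the read depth is known from the sources. The authors' thresholded list was the 160 highest pooled peaks, and the pooled signal at ranks 160, 1000 and 10000 was 35.4, 22.5 and 14.3. The lists include background by design, so a peak of low rank is not by itself a bound site.

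MicroRNA genes of this set had strong peaks at a few loci, and from rank 2500 down their share with a peak was close to that of other genes when each gene was counted. The best pooled peak ranked within 160 at 5 of 250 genes (2.0%, exact 95% interval 0.653% to 4.61%), against 0.404% of the 44512 other genes, 0.6% of the 29149 other genes without piRNA genes and 0.35% of other protein-coding genes. The 5 genes came from only 2 peaks, that of mir-1 and that of the cluster of mir-229 with mir-64, mir-65 and mir-66. Counted by locus the share was 2 of 208 (0.962%, interval 0.117% to 3.43%), beside 1.11% of 11938 loci of other genes joined in the same way within their class. Those other loci were joined in chains of up to 406 genes and therefore cover more sequence. By locus the shares were 2.4% (interval 0.785% to 5.52%) beside 5.14% at rank 1000, and 13.9% (9.54% to 19.4%) beside 26.5% at rank 10000. Without the 4 clustered genes, 0.407% of the other 246 genes lay within rank 160, close to the share of other genes.

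Within rank 320 were 6 genes (2.4%, background 0.789%), within rank 640 7 genes (2.8%, background 1.31%) and within rank 1000 8 genes (3.2%, interval 1.39% to 6.21%), against 1.9% of other genes. Other genes without piRNA genes reached 2.59% at rank 1000 and other protein-coding genes 1.62%, both inside the interval of the microRNA genes. The 8 genes within rank 1000 had 5 peaks in all. At rank 2500 the microRNA genes stood at 10 of 250 (4.0%, background 3.86%) and at rank 5000 at 17 (6.8%, background 6.9%). At rank 10000 there were 32 genes with 29 peaks (12.8%, interval 8.92% to 17.6%), against 12.5% of other genes, 14.5% of other genes without piRNA genes and 12.6% of protein-coding genes. Over the whole list of 30000 peaks, 87 genes had a summit in the window (34.8%, interval 28.9% to 41.1%), beside 33.3% of other genes and 35.9% of those without piRNA genes. The microRNA genes thus stood above the share of all other genes at ranks 160 to 1000 and near it from rank 2500 on. Other classes of non-coding genes stood higher than the microRNA genes at ranks 1000 and 10000. Within rank 1000 were 11.0% of snoRNA genes, 5.23% of tRNA genes and 4.39% of genes of the annotation class ncRNA. At rank 10000 their shares were 27.5%, 24.3% and 18.3%, and at rank 160 2.89%, 0.49% and 1.09%. At ranks 160 and 1000 the excess of the microRNA genes over all other genes rested on the peak shared by the cluster of mir-229. Without that cluster, 4 of 246 genes (1.63%) lay within rank 1000, below the 1.9% of other genes. That 1.9% also lies inside the interval of all 250 microRNA genes at rank 1000. Among the 80 highest peaks there was none at these genes (0 of 250), beside 0.213% of other genes. The intervals treat genes as independent and cover counting error only, although clustered genes share peaks, so they are too narrow.

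**Figure D1:**
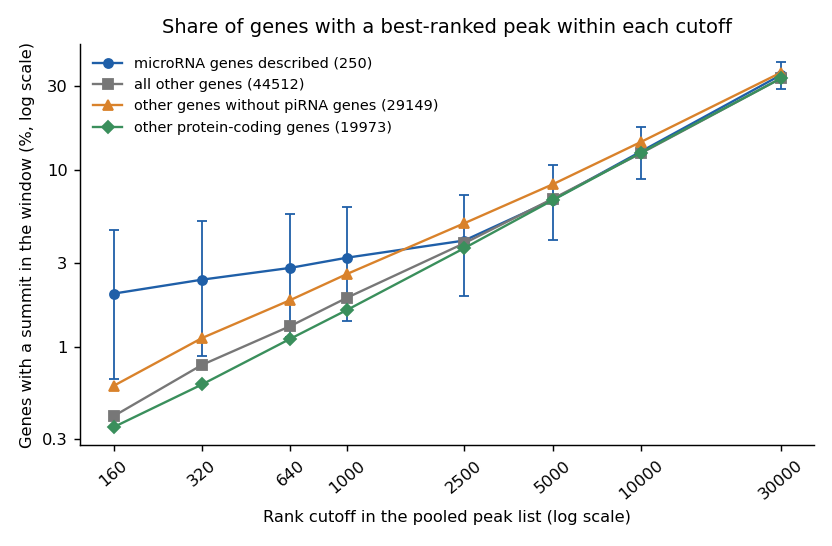
Share of genes (%, log scale) with a summit between 1000 bp upstream and 200 bp downstream of the gene start, by rank cutoff in the pooled list (log scale). Points are the 250 microRNA genes and 3 sets of other genes, and bars are exact 95% intervals for the microRNA genes. The microRNA genes lie above the other sets at rank 160 (2.0% against 0.404% of all other genes) and meet them from rank 2500 (4.0% against 3.86%) on.

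Of the 11 microRNA genes that the rule leaves out, 4 lay within pooled rank 160 (36.4%) and 9 within rank 1000 (81.8%). All other genes, these 11 included, stood at 0.404% and 1.9%. The counts were again 4 and 9 in replicate 1, but 1 and 2 in replicate 2, and 2 genes lay within rank 1000 of both. The distinct peaks behind these counts were not counted. The genes described here thus held 5 of the 9 microRNA genes within rank 160, and 8 of 17 within rank 1000, although they make up 250 of 261.

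The highest-ranked gene was mir-1, the conserved muscle microRNA that acts at the neuromuscular junction on acetylcholine receptor subunits and on the transcription factor gene mef-2. Its hairpin lies at I:6172662-6172757 on the minus strand. The pooled peak ranked 109 with a signal of 39.7, and its summit lay 395 bp upstream of the hairpin, in intergenic DNA. In replicate 1 the peak ranked 80 with a signal of 32.2, and in replicate 2 the overlapping peak ranked 11717 with a signal of 7.49. The replicates thus differed widely in rank at this gene, with replicate 2 among peaks of low signal. The non-coding RNA gene T09B4.17 started nearer to the summit, at 153 bp, than mir-1 did.

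The cluster of mir-229, mir-64, mir-65 and mir-66 lies within an intron of gcn-1, a gene of translational control, on the same strand, from III:2172452 to III:2173206. A single pooled peak at III:2172004-2172359 ranked 111 with a signal of 39.5, and in replicate 1 it ranked 67 with a signal of 34.6. No peak of replicate 2 overlapped it. Its summit lay 270 bp upstream of mir-229, the first hairpin of the cluster, and 666, 820 and 926 bp upstream of mir-64, mir-65 and mir-66, and the annotated start of gcn-1 was 20237 bp away. The only peak of replicate 2 in any of the 4 windows was in that of mir-66, at rank 27920 and 131 bp downstream of its start, where it is a different site. All 4 genes carry the seed AUGACAC on the 5p arm, so the whole seed group on that arm was near 1 peak of replicate 1. The gene mir-63, with the same seed on its 3p arm, had a best pooled rank of 18542 and no peak of either replicate in its window.

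The annotated gene F09A5.15, on the plus strand of the X chromosome at X:13144830-13144919, lies antisense to mir-55 and inside F09A5.3. Its Ensembl name is mir-55b, but the rule left out only mir-51 to mir-56 by symbol, so it stayed in the set. Its best pooled peak ranked 307 with a signal of 29.5 and a summit 308 bp upstream. The best peak in its window had a signal of 27.8 and rank 128 in replicate 1, and a signal of 6.92 and rank 15049 in replicate 2. That peak of replicate 2 lay elsewhere in the window, 715 bp upstream, and the one overlapping the pooled peak ranked 16133. The gene start nearest to the pooled summit was that of mir-56, at 265 bp, which belongs to the mir-51 family that the rule leaves out. This gene is counted by its annotation class alone, and without it 7 of 249 genes (2.81%) lay within rank 1000.

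The gene mir-788 on the X chromosome (X:8485294-8485371, minus strand) had its best rank in replicate 2. The peak ranked 31 there with a signal of 19.6, 3801 in replicate 1 with a signal of 11.1, and 434 in the pooled list with a signal of 27.0. The pooled summit lay 159 bp upstream in intergenic DNA, in the window of no other gene, and the nearest protein-coding gene start, that of the nuclear receptor gene nhr-14, was 9352 bp from it. This was the one gene of the set with a peak within rank 160 of replicate 2.

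The gene mir-80 (III:8865270-8865367, minus strand) belongs to the abundant mir-58 family, the worm counterpart of the fly microRNA bantam, which restrains TGF-beta signalling. Its pooled peak ranked 953 with a signal of 22.7, 203 bp upstream of the hairpin, and it ranked 2837 in replicate 1 with a signal of 11.9 and 16304 in replicate 2 with a signal of 6.72. Its X-linked relatives mir-81 and mir-82, with the same seed GAGAUCA, had no pooled peak in the window. Of the 6 genes with that seed, 3 had a pooled peak at any rank and 1 ranked within 1000.

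Next outside rank 1000 was mir-57, a microRNA under Hox control that acts in posterior cell fates, at pooled rank 1636 with a signal of 20.6 and at ranks 4296 and 7348 in replicates 1 and 2. The non-coding RNA gene T09A5.17 started 36 bp from that summit, and mir-57 251 bp from it. The gene mir-237, which shares the seed CCCUGAG with lin-4, ranked 1938 in the pooled list, 16665 in replicate 1 and 712 in replicate 2, with the summit 85 bp upstream of the hairpin. Its start was the nearest, but the summit also lay in the windows of F22F1.t2 and F22F1.t3. The gene mir-45 ranked 3191 with a summit 54 bp upstream, had no peak in replicate 1 and ranked 1045 in replicate 2. The gene mir-62, a mirtron made from an intron of ugt-50, ranked 3361 and stood at 4070 and 6786 in the replicates. At rank 160 the genes next to the limit were those of the mir-64 cluster inside, at 111, and F09A5.15 outside, at 307.

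Replicates differed at the strongest peaks of the set. In replicate 1, 6 genes from 3 peaks lay within rank 160 (2.4%, background 0.402%) and 7 within rank 1000 (2.8%, background 1.99%). In replicate 2, mir-788 alone lay within rank 160 (0.4%, background 0.263%), and it was joined by mir-230 at rank 374 and mir-237 at rank 712 within rank 1000 (1.2%, background 1.4%). At mir-230 the gene start nearest to the pooled summit was that of the non-coding RNA gene F46G11.20, at 302 bp. No gene lay within rank 1000 of both replicates (0 of 250, exact upper limit 1.46%, background 0.395%). Within rank 5000 of both there was 1 gene, mir-788 (0.4%, background 1.27%), and within rank 10000 of both there were 5 (2.0%, background 3.1%): mir-788, mir-57, mir-62, mir-34 and mir-2. At the first 3 of these the replicate peaks overlapped the pooled peak. At mir-34 the best summits lay 14 bp downstream in replicate 1 and 809 bp upstream in replicate 2, and at mir-2 889 bp upstream and 24 bp downstream, so these were different sites.

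**Figure D2:**
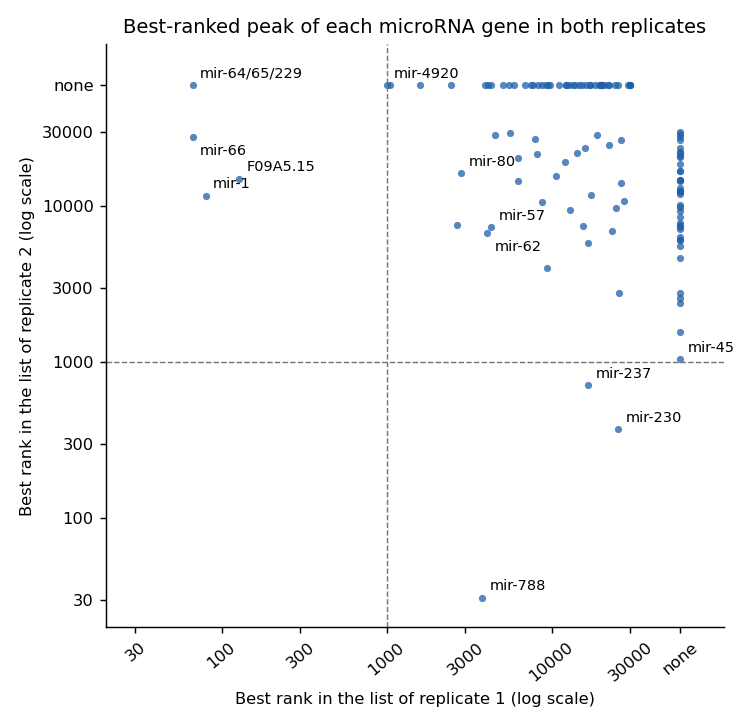
Best rank in the window of each microRNA gene in replicate 1 (x axis) and replicate 2 (y axis), both on log scales, with genes lacking a peak in a list placed at "none" and genes with no peak in either left out. Dashed lines mark rank 1000. The lower left corner, within rank 1000 of both, is empty: mir-1 and the mir-64 cluster are high in replicate 1 (ranks 80 and 67) and mir-788 is high in replicate 2 (rank 31).

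The same held when overlap with the pooled peak was asked for. Of the 5 distinct peaks within pooled rank 1000, all 5 overlapped a peak of replicate 1 at some rank and 4 a peak of replicate 2, beside 100% and 86.5% of the 505 best peaks of other genes. At the same cutoff of 1000, 3 recurred in replicate 1, 1 in replicate 2 and 0 in both, beside 69.5%, 30.7% and 18.8%. Of the 29 peaks within rank 10000, 13 (44.8%) overlapped peaks of both replicates at any rank, against 63.6% of 3505 best peaks of other genes, and 3 (10.3%) did so within rank 10000, against 20.5%. In 1 replicate at a time the shares at rank 10000 were not uniformly lower: 69.0% recurred in replicate 1 at any rank, against 87.3%, and 75.9% in replicate 2, against 75.8%. Within rank 10000 the shares were 44.8% and 51.7%, against 60.5% and 46.1%. Recurrence in both replicates together was numerically below that at other genes, on few peaks.

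The window reaches further upstream than downstream, so most summits in it lie upstream by its shape. Of the 32 genes within rank 10000, 27 (84.4%) had the summit upstream of the hairpin, against 76.2% of other genes without piRNA genes, and 18 (56.2%) within 500 bp upstream, against 43.1%. Over all 87 genes with a peak the upstream share was 78.2%, against 79.5%. With equal spans of 1000 bp, 27 summits of rank 1 to 10000 were counted upstream of the microRNA genes and 29 downstream. A summit was counted once for each gene near it, so the peak of the mir-229 cluster counts 4 times. The counts were 2134 and 1994 for other protein-coding genes, and 1039 and 1321 for genes of the annotation class ncRNA. The median position in the window, for rank 10000, was 289 bp upstream, beside 271 bp. Wider around the gene starts, the profile in bins of 200 bp, with each summit counted once per gene, was uneven. It held 10 summits of rank 1 to 10000 (4.0 per 100 genes) from 400 to 200 bp upstream, and the same number from 1400 to 1200 bp upstream. Protein-coding genes had 2.45 and 2.10 summits per 100 genes in these bins. Genes of the annotation class ncRNA had 6.27 per 100 genes in the first 200 bp downstream of their start, where the microRNA genes had 2.0.

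**Figure D3:**
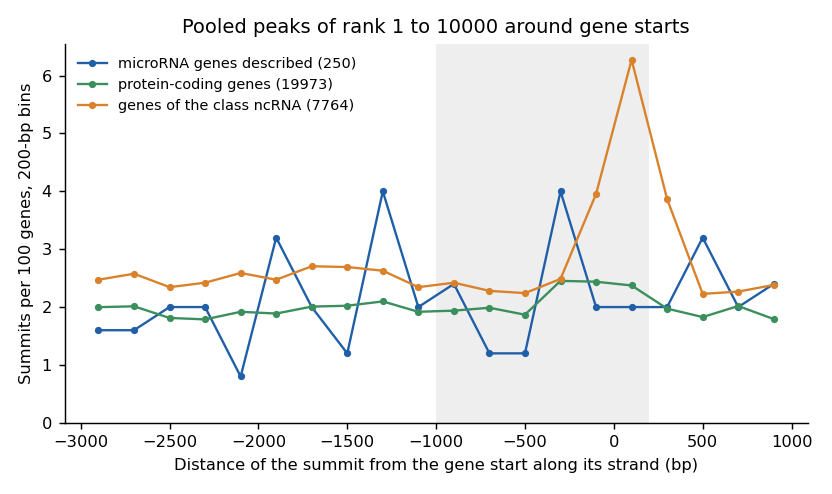
Summits of pooled peaks of rank 1 to 10000 per 100 genes, in bins of 200 bp by distance from the gene start along its strand (bp), for the 250 microRNA genes, protein-coding genes and genes of the class ncRNA; the grey band is the window of the rule. A summit near several genes is counted once for each of them. The microRNA line moves between 0.8 and 4.0 on counts of 2 to 10 summits a bin and has no peak like that of the ncRNA class, which reaches 6.27.

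In many cases another gene started nearer to the summit. The microRNA gene's own start was the nearest gene start for 1 of the 5 genes within rank 160, 3 of the 8 within rank 1000 and 21 of the 32 within rank 10000. The 3 within rank 1000 were mir-229, mir-788 and mir-80. At mir-64, mir-65 and mir-66 the nearest start was that of mir-229, with which they share the peak. This count was not made for other genes, so it has no background. Genes hosted on the same strand held 4 of the 5 within rank 160, all of them the mir-64 cluster on its single peak, and 12 of the 32 within rank 10000, which is 14.3% of 84 hosted genes. Of the 166 genes not hosted, 0.602% lay within rank 160, 1.81% within rank 1000 and 12.0% within rank 10000, beside 0.404%, 1.9% and 12.5% of other genes. Both shares at rank 10000 were near the background.

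Some strong peaks lay outside the window but near a hairpin. With the window widened to 2000 bp upstream and 500 bp downstream, 6 genes lay within rank 160 (2.4%, background 0.654%), 17 within rank 1000 (6.8%, background 3.1%) and 2 within rank 1000 of both replicates (0.8%, background 0.62%). Those 2 genes were mir-71 and mir-2215. Other genes without piRNA genes stood at 0.919%, 4.12% and 0.844%, each inside the exact interval of the microRNA genes. That interval was 4.01% to 10.7% at rank 1000, and the 4 genes of the mir-229 cluster, on 1 peak, were among the 17. The gene mir-71, which promotes long life and stress resistance, lies in an intron of ppfr-1 at I:9379927-9380020. A peak at I:9381220-9381575, 1378 bp upstream of the hairpin and within the same gene, ranked 11 in the pooled list with a signal of 84.8, and 19 and 7 in the replicates. The start of the non-coding RNA gene F16A11.13 was nearer to that summit, at 319 bp. Inside the rule's window, mir-71 had a best pooled rank of 27332. The neighbouring mir-2, a neuronal microRNA in the same host gene, had no pooled peak in its window.

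The gene mir-2215 had a peak 1788 bp upstream, in intergenic DNA and in the window of no gene, at pooled rank 185 with a signal of 34.0 and at ranks 371 and 850 in the replicates. Its own start was the nearest gene start. At mir-58.1, an abundant microRNA of the same family as mir-80, a pooled peak 402 bp downstream of the hairpin start ranked 281. The peak of replicate 2 at the same summit position ranked 1503. In replicate 1 the best overlapping peak ranked 422 with its summit at 219 bp, and the one with its summit at 426 bp ranked 2500. An exon of the non-coding gene Y67D8A.7, inside an intron of phkb-1, held the pooled summit, and the start of Y67D8A.7 was 137 bp away. Further genes with such peaks were mir-4807 at rank 471, mir-1824 at 672, mir-2216 at 712, mir-8190 at 804, mir-235 at 807 and mir-271 at 847, and at each of these except mir-8190 another gene's start was nearer.

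**Figure D4:**
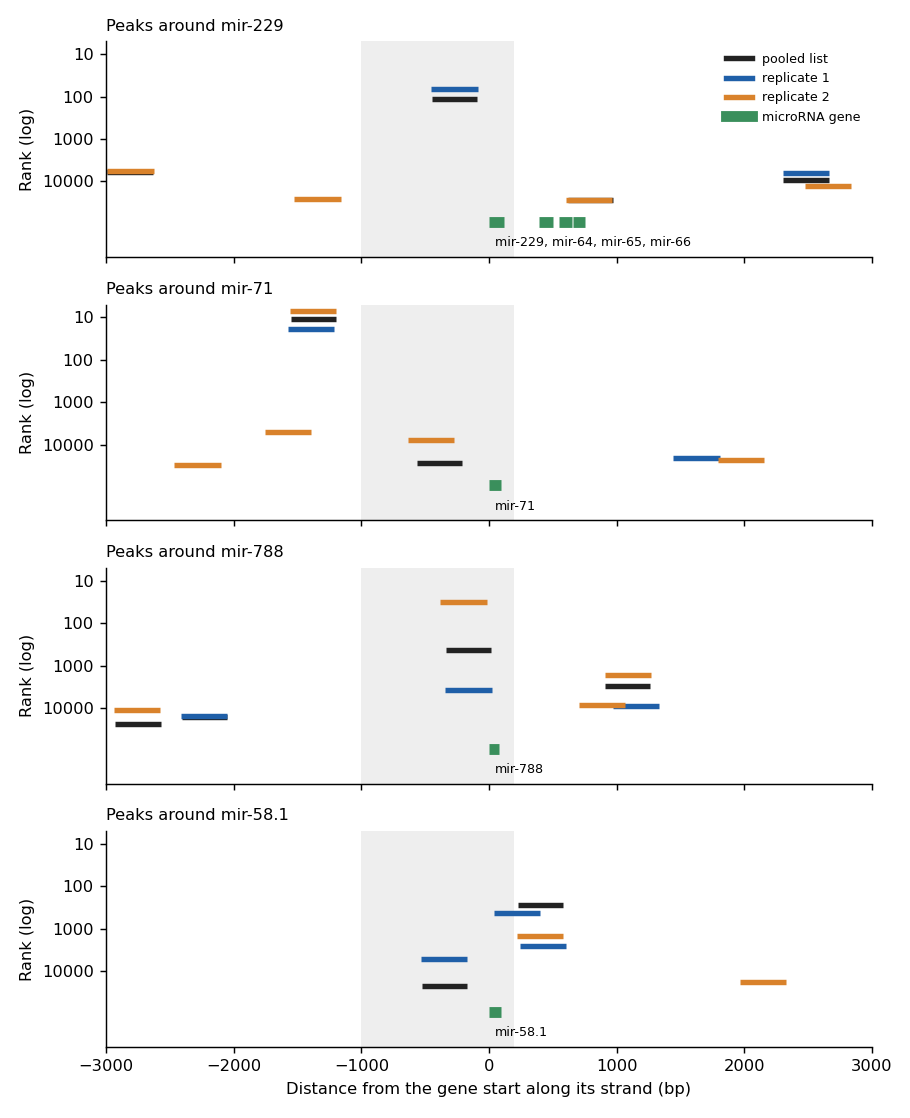
Peaks within 3000 bp of the gene start of mir-229, mir-71, mir-788 and mir-58.1, by distance along the strand (x axis, bp) and rank in the list (y axis, log scale, best at the top). Black, blue and orange bars are peaks of the pooled list, replicate 1 and replicate 2, green boxes are microRNA genes and the grey band is the window of the rule. At mir-71 all 3 lists have a peak within rank 19 outside the band, at mir-229 the peak of rank 111 has no counterpart in replicate 2, and at mir-788 replicate 2 ranks highest.

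By chromosome, 5 of the 8 genes within rank 1000 lay on chromosome III, 4 of them sharing a peak, and 1 on chromosome I and 2 on X. On X, where other genes are more often near strong peaks, none of the 69 microRNA genes lay within rank 160 (0%, exact upper limit 5.21%, background 1.32%). Within rank 1000 were 2 of them (2.9%, background 4.61%), and within rank 10000 10 (14.5%, background 18.7%). These backgrounds are other X genes without piRNA genes. On the autosomes 5 of 181 lay within rank 160 (2.76%), 6 within rank 1000 (3.31%) and 22 within rank 10000 (12.2%). Other autosomal genes without piRNA genes stood at 0.429%, 2.1% and 13.6%. With piRNA genes included, other autosomal genes stood at 11.6% at rank 10000, below the microRNA genes. Of the autosomal microRNA genes within rank 160, 4 shared a peak. The shares of other X genes lay within the exact intervals of the microRNA genes, 0.353% to 10.1% at rank 1000 and 7.17% to 25.0% at rank 10000. The order on X depended on the replicate. In replicate 2 the microRNA genes stood above other X genes, with 1.45% against 0.873% at rank 160, 4.35% against 2.46% at rank 1000 and 20.3% against 16.2% at rank 10000. In replicate 1 they stood at 1.45% against 1.43%, 1.45% against 4.93%, and 8 of 69 (11.6%) against 1120 of 5613 at rank 10000. The count on chromosome III came from replicate 1, where 4 of 27 lay within rank 1000. In replicate 2 none did, and 11.1% lay within rank 10000.

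**Figure D5:**
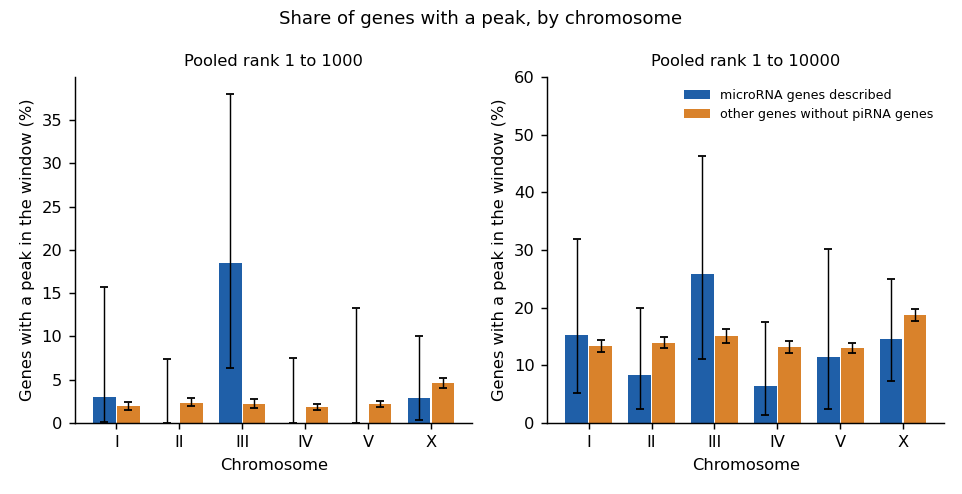
Share of genes (%) with a summit in the window by chromosome, from the pooled list, for ranks 1 to 1000 (left) and 1 to 10000 (right); blue bars are the microRNA genes, orange bars other genes without piRNA genes, and error bars exact 95% intervals. Chromosome III stands highest for the microRNA genes in the pooled list, at 18.5% and 25.9%, with 4 genes on a peak that replicate 2 lacks (there 0 of 27 and 11.1%). Only its interval at rank 1000 (6.3% to 38.1%) leaves out the share of the other genes (2.18%). At rank 10000 its interval (11.1% to 46.3%) includes their 15.1%, and the intervals of the other chromosomes include the share of the other genes at both cutoffs.

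The words searched at the summits differed in how often they occurred. Up to 100 bp from the summit and on any strand, GAGAGA was present at 4 of the 5 peaks within rank 1000, beside 37.2% of 995 other peaks of the same ranks, and at 9 of 29 within rank 10000 (31.0%, beside 17.1%). Over all 77 best peaks the share was 22.1%, beside 13.5%. Within 50 bp the counts were 3 of 5 (beside 23.6%) and 4 of 29 (13.8%, beside 9.63%), and at the 24 peaks between rank 1000 and rank 10000 alone 1 (4.17%, beside 8.08%), so the difference at this distance came from the 5 highest peaks. The core TGCC, preceded by A, G or T and followed by A or G, is part of the published PEB-1 consensus and was present on either strand at 2 of 5, 11 of 29 (37.9%) and 31 of 77 (40.3%), beside 44.3%, 36.9% and 35.2%. Within 50 bp it was present at 2 of 5 (beside 28.8%), 9 of 29 (31.0%, beside 21.0%) and 22 of 77 (28.6%, beside 19.8%). Neither kind of word is part of the other. These are descriptions of the letters in the windows, and GAGAGA also occurs in simple repeats such as those printed for mir-57 and mir-45.

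Among microRNAs with a described function, strong peaks in the window were few outside those already named. The list held 44 genes, chosen with earlier results of these data known, and 6 of them lay within pooled rank 1000: mir-1, the 4 clustered genes and mir-80. That is 13.6%, beside 0.971% of the other 206 microRNA genes and 1.9% of all other genes, and 4 of the 6 share a peak. In replicate 2, 1 of the 44 lay within rank 1000 (2.27%), beside 0.971% of the other 206 microRNA genes and 1.4% of all other genes. The mir-35 family, mir-35 to mir-42, whose 8 members share the seed CACCGGG and are needed for embryogenesis, had no pooled peak in any window, and a peak of replicate 1 at rank 14705 was the best for mir-35 to mir-39. The gene lsy-6, which sets the left and right asymmetry of the ASE taste neurons, had no pooled peak and a best rank of 18799 in replicate 2. The neuronal gene mir-124 had no pooled peak and ranks of 26304 and 26712 in the replicates. The stress-response gene mir-34 had a pooled rank of 22074.

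No pooled peak lay in the windows of mir-61, which acts in vulval patterning, of mir-240 and mir-786, which set the defecation rhythm, or of mir-235, which holds blast cells quiescent in starved larvae. The same was true of mir-2, mir-75, mir-79, mir-81, mir-82, mir-228, mir-233, mir-239.1, mir-239.2, mir-246, mir-273, mir-793, mir-794 and mir-795. The gene mir-795 has the seed GAGGUAG of the let-7 family. Low pooled ranks were found at mir-44 (12331), mir-238 (13834), mir-63 (18542) and mir-58.1 (22022). Of 250 genes, 249 matched a mature sequence, with 436 arms and 362 distinct seeds. The seeds shared by 3 or more genes of the set, apart from AUGACAC and GAGAUCA, had no gene within pooled rank 1000.

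The genes through which microRNAs are made and act were examined by the same window. Of 18 listed genes 17 matched, and 2 of them lay within rank 160, 4 within rank 1000 and 5 within rank 10000, where other protein-coding genes stood at 0.35%, 1.62% and 12.6%. The Argonaute gene alg-5 ranked 49 in the pooled list, 40 in replicate 1 and 7875 in replicate 2, with the summit 863 bp upstream, and nhl-2, whose product enhances microRNA silencing, ranked 93, 74 and 20270. The GW182-like cofactor gene ain-1 ranked 406, 168 and 23562, and vig-1, a component of the silencing complex, ranked 408 and 320 with no peak in replicate 2. The pooled summits of nhl-2, ain-1 and vig-1 lay 847, 685 and 462 bp upstream. Whether another gene started nearer to the summits was not examined for these 4 genes. All 4 were thus strong in replicate 1 and weak or missing in replicate 2, as mir-1 and the mir-64 cluster were. Other genes leaned the same way. Of their best pooled peaks within rank 1000, 69.5% recurred within rank 1000 in replicate 1 and 30.7% in replicate 2. The translational repressor gene ifet-1 ranked 2237. Drosha (drsh-1) ranked 10782, Dicer (dcr-1) 16449 and the Argonaute alg-2 13102, while pash-1 and the main microRNA Argonaute gene alg-1 had no pooled peak in the window. Of 11 genes listed as targets of these microRNAs, 0 lay within rank 1000 and 2 within rank 10000, die-1 at 7245 and mef-2, a target of mir-1, at 8839. On so few genes these counts are near the shares of other protein-coding genes, 1.62% and 12.6%.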

How the data were processed

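Peaks came from ChIP-seq of eGFP-tagged PEB-1 in 2 biological replicates of L2 larvae, 1 group per the labels. Lists were deposited in ce10 and ce11, and only ce11 (the assembly WBcel235) was used. Per the accompanying file listing, the relaxed lists were called with a control file for each replicate and for both pooled, and the thresholded list is the optimal set of the irreproducible discovery rate procedure. For aligner, caller, versions and depth the sources say nothing. Signal is the peak's value as deposited by the authors, without its scale, and served only to rank and describe peaks within a list. The column meant for q-values in the deposited lists was below 0 for 29058 of 30000 pooled peaks, so it served as a score that decided between equal signals. The 160 thresholded peaks were checked to be the 160 highest pooled peaks.

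Genes came from Ensembl release 115 without pseudogenes and mitochondrial genes, with symbols from RefSeq for 44753 of 44762. Positions are 1-based. The mature sequence of 1 clustered gene is not reported here. The window was 1000 bp upstream to 200 bp downstream of the gene start, loci were joined within 2000 bp, and recurrence meant overlap of at least 1 bp. Intervals are exact 95% binomial (Clopper-Pearson). No test across samples was possible with 1 group and no comparison group, so shares are descriptions beside those of other genes. Genes were named if within pooled rank 1000, next to rank 160 or 1000, within rank 160 of a replicate, or on a list of 44 genes with described roles; others named, such as mir-230 and those with peaks outside the window, were chosen after their values were seen. The members and lists were chosen with earlier results of these data known. Assignment and ranking were checked on 186 made-up peaks at known distances, all 186 recovered. Python 3.11.15, NumPy 2.4.6, SciPy 1.17.1 and matplotlib 3.10.9 were used.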

Additional observations from a re-analysis of the deposited data

How the results depend on the processing

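Over 117 recomputed values of 22 results, 72 stayed within 1.5 times the value reported and 45 did not. The order of microRNA genes and other genes turned, with the microRNA genes lower, in 4 of 12 alternatives at rank 160 (loci joined within 2 or 10 kb, X alone, the 80 highest peaks), 4 of 11 at rank 1000 (both locus settings, X alone, replicate 2 alone) and 3 of 11 at rank 10000 (both locus settings, X alone). Within rank 160, the share of the microRNA genes (2.0%) was 0.8% with the window from 500 bp upstream to 100 bp downstream, 0.962% and 1.05% with loci joined within 2 and 10 kb, 0.0% on X or among the 80 highest peaks, 0.602% for genes not hosted, 0.407% without the mir-64 cluster (chosen after seeing the data), and 0.4% to 2.4% with the list of 1 replicate in place of the pooled list. The share of other genes (0.404%) was 0.267% with the narrow and 0.654% with the wide window (2000 bp upstream to 500 bp downstream), 1.11% and 2.49% by loci, 1.28% on X, 0.213% among the 80 highest peaks, and 0.263% to 0.402% by replicate. Within rank 1000, the microRNA genes (3.2%) stood at 2.0% and 6.8% with the narrow and wide windows, 1.81% if not hosted, 1.63% without the mir-64 cluster, 2.4% and 2.62% by loci, 2.9% on X and 1.2% to 2.8% by replicate (1.2% in replicate 2, beside 1.4% of other genes). Other genes (1.9%) stood at 1.17% and 3.1% with these windows, 5.14% and 10.1% by loci, and 4.55% on X. Within rank 10000, the microRNA genes (12.8%) stood at 8.4% and 26.4% with the narrow and wide windows and other genes (12.5%) at 6.74% and 22.9%, and by loci at 13.9% and 14.7% beside 26.5% and 33.5%, and on X at 14.5% beside 18.5%. Recurrence of the peaks within rank 10000 in both replicates fell from 44.8% to 27.6% with summits within 100 bp. The loci of other genes are longer, and wider windows hold more summits by construction; the cause of the other shifts was not tested. No paired analysis was possible because there was only 1 group. Read depth was not given, so its limit on detection is unknown.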
